A study of Mus musculus with 12 samples.

Results

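The 6 genes described here encode enzymes that release the precursor of the prostaglandins, make the prostaglandins and break them down. They are Pla2g4a, Ptgs1, Ptgs2, Ptges, Ptgis and Hpgd, and they were taken as a list of gene names. They are 6 of the 21001 genes in the data. Of these, 12314 genes reached at least 1 FPKM (mapped fragments divided by transcript length in kilobases and by library depth) in at least 3 libraries and were tested, among them 5 of the 6 members. Hpgd did not reach that level in any library.

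RNA was sequenced from mouse bone marrow stromal cells marked with green fluorescent protein (GFP-BMSCs) in 12 libraries, 3 for each of 4 groups. The NC group is primary cultured GFP-BMSCs. The HOMING group is GFP-BMSCs recovered from the marrow of mice that received these cells alone under the skin. The BM group came from the marrow of tumor-bearing mice co-injected with RFP-LLCs and GFP-BMSCs, and the TUMOR group came from the cancer site of such mice. LLC is the usual short name of Lewis lung carcinoma, a mouse tumour line, here with a red fluorescent protein. All 12 libraries are labelled as strain C57BL/6, with the genotype spelled "wide type", and as sorted cells. The series title calls them mesenchymal stem cells and concerns their education by cancer and the niche that precedes metastasis, so BM against HOMING is given first. Neither the sorting gate, the promoter that drives GFP, the time between injection and collection, nor the age of the mice is given in the sources used here. Whether replicates came from separate mice or cultures is not stated either, so the p-values here speak only of spread among libraries, 3 per group, which may be technical. That spread was estimated over all 4 groups together. A library can therefore weigh on the SE and p-value of comparisons that do not include its group.

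Prostaglandins are made on demand. A phospholipase frees arachidonate from membrane phospholipids, a cyclooxygenase turns it into the unstable endoperoxide prostaglandin H2, and a terminal synthase converts that into a given prostanoid, such as prostaglandin E2 or prostacyclin. Stromal cells of the bone marrow are known as a source of prostaglandin E2, which acts on myeloid and lymphoid cells through G protein-coupled receptors.

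Library totals lay between 43232145 and 46166519 expected counts. Stromal markers were abundant in all groups, with Col1a1 at group means of 179 to 270 FPKM, but Thy1 (0.0833 to 0.503 FPKM) and Nt5e (0.367 to 0.627 FPKM), which are often used to define such cells, were near 0 in every group. Summed over each list, blood cell markers were highest in HOMING. The 12 neutrophil markers summed to 1732 to 2537 FPKM in the HOMING libraries, against 52.1 to 60.3 in BM, 1.31 to 2.74 in NC and 0.91 to 2.55 in TUMOR. The 11 macrophage and pan-leukocyte markers summed to 226 to 372 FPKM in HOMING, 57.1 to 58.0 in BM, 25.1 to 25.7 in TUMOR and 13.5 to 19.3 in NC, and the 6 erythroid markers to 1803 to 2948 FPKM in HOMING and no more than 2.47 elsewhere. The 6 epithelial markers summed to 69.6 to 115 FPKM in TUMOR and to 1.94 to 6.94 in the other groups, but the TUMOR sum was almost wholly Krt8 (64.6 ± 25.3 FPKM) and Krt19 (21.6 ± 0.728 FPKM), and Epcam, Cdh1, Krt18 and Cldn4 were at 0.00667 to 0.0633 FPKM there. In such bulk libraries, fewer cells of a type and less RNA per cell cannot be told apart. NC replicate 3 and TUMOR replicate 1 stood apart from the other libraries of their groups, with a chi-square per degree of freedom over genes of 30.1 to 51.3 and 29.7 to 33.8 against them, where other pairs within groups had 3.13 to 18.8.

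Here "rose", "fell" and "called" are used of a gene for which edgeR's quasi-likelihood test gave a Benjamini-Hochberg adjusted p under 0.05 over all 12314 genes and the fitted change was at least 2-fold. Changes are log2 values ± SE of the first group minus the second, and levels are mean FPKM ± SD with n = 3 libraries. In BM against HOMING, 1 of the 5 tested members was called, Ptgs2, higher in BM, and 10.4% of all tested genes were called (3.71% higher and 6.68% lower). In HOMING against NC, 1 member was called, Ptges, higher in HOMING, beside 14.3% of all genes (9.64% higher and 4.69% lower). In BM against NC, 2 members were called, Ptgs2 and Ptges, both higher in BM, beside 11.5% of all genes (7.93% higher and 3.57% lower). In TUMOR against NC, 2 members were called, Ptges higher and Ptgis lower in TUMOR, beside 16.4% of all genes (9.75% higher and 6.65% lower). In BM against TUMOR, 1 member was called, Ptgs2, higher in BM, beside 14.2% of all genes (7.28% higher and 6.95% lower). In TUMOR against HOMING, 1 member was called, Ptgs2, lower in TUMOR, beside 10.8% of all genes (4.42% higher and 6.37% lower). With 5 tested members, 1 or 2 calls in a comparison are too few to set against these shares. Comparisons with a group in common share its libraries and are not independent of each other. Called directions among the members were therefore those of 3 genes, Ptgs2, Ptges and Ptgis, while Ptgs1 and Pla2g4a were called in none of the 6 comparisons.

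**Figure D1:**
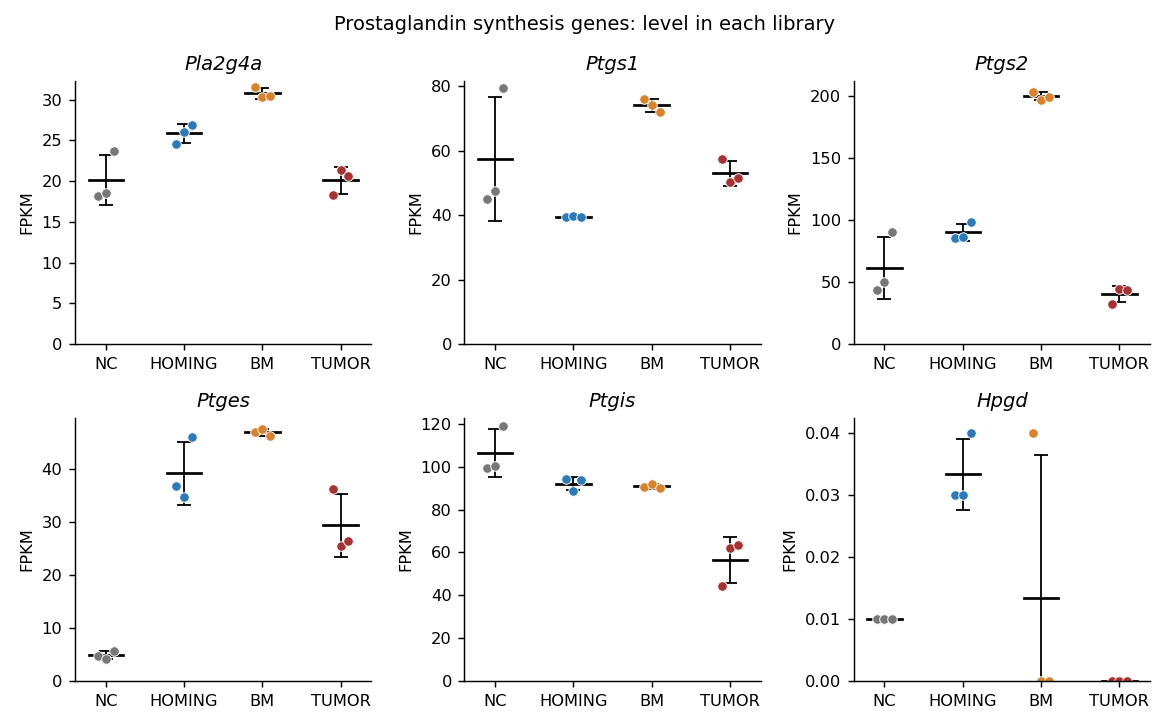
Level of each prostaglandin synthesis gene in FPKM (vertical axis, from 0) in the 3 libraries of each group; points are libraries in replicate order, thick lines are means and bars are SD. Ptgs2 was highest in all 3 BM libraries (197 to 204 FPKM), Ptges was lowest in all 3 NC libraries (4.19 to 5.66 FPKM), and Hpgd did not pass 0.04 FPKM.

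The start of each gene is shown for the 2 cyclooxygenase genes and for Ptges, because Ptgs2 and Ptges had most of the calls and Ptgs1 is the related gene with none. The windows are RefSeq sequence of GRCm38.p6, from 250 bases before to 50 bases after the annotated start, 300 bases in all, written 5′ to 3′ on the strand of the gene. The deposited tables were made on another build, and no coordinate of theirs is used here. Ptgs2 lies on the plus strand at chr1:150099781-150100080, Ptges on the minus strand at chr2:30903248-30903547 and Ptgs1 on the plus strand at chr2:36230176-36230475. Capitals mark matches to the motifs searched, apart from the common NF-kB pattern.
Ptgs2: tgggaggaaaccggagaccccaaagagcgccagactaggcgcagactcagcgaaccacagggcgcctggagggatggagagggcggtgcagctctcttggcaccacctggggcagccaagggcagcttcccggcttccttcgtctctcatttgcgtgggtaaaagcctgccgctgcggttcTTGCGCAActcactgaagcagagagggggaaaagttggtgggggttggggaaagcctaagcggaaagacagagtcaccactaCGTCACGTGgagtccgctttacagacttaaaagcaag
Ptges: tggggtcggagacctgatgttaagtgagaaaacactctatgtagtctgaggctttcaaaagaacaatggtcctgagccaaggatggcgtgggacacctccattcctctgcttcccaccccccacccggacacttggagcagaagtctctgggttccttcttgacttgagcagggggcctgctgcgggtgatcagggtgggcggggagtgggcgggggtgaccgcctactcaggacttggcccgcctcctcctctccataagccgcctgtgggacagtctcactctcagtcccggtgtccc
Ptgs1: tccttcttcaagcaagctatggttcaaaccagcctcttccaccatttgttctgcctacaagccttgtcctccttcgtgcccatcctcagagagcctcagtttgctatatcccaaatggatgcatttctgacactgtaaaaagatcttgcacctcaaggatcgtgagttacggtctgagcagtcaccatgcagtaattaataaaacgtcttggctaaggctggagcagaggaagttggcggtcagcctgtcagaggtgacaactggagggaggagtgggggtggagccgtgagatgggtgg

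The motifs searched on both strands were the TATA box TATAAA, the cyclic AMP response core TGACG, the AP-1 pattern TGANTCA, the C/EBP pattern TTGCNNAA, a gapped NF-kB pattern and the E-box CACGTG. Counted from the annotated start, the Ptgs2 window held the C/EBP pattern at -69 to -62, which reads the same on both strands, and the NF-kB pattern at -23 to -14. It also held the cyclic AMP core at 14 to 18 on the minus strand, overlapping the E-box at 17 to 22. The Ptges window held only the NF-kB pattern, at -38 to -29, and so did the Ptgs1 window, at 28 to 37. Of the 32851 RefSeq windows of this length, 10.8% held the C/EBP pattern, 20.8% the cyclic AMP core, 7.15% the E-box and 50.8% the NF-kB pattern. The shares for the TATA box and AP-1 were 13.6% and 7.81%. A match describes letters in a window and is not a measured binding site. Windows were given for 5 of the 6 members, Ptgis being the exception.

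Pla2g4a (Entrez 18783) encodes cytosolic phospholipase A2 alpha, the enzyme that frees arachidonate from membranes after a rise in calcium. Its levels in replicates 1, 2 and 3 were 18.14, 18.58 and 23.74 FPKM in NC and 24.62, 26.01 and 26.94 FPKM in HOMING. They were 31.56, 30.36 and 30.46 FPKM in BM, and 18.27, 21.41 and 20.67 FPKM in TUMOR. All BM libraries lay above all others, HOMING came next without overlap, and NC and TUMOR overlapped. The means were 20.2 ± 3.11 in NC, 25.9 ± 1.17 in HOMING, 30.8 ± 0.666 in BM and 20.1 ± 1.64 in TUMOR. None of the 6 differences reached 2-fold. The greatest, BM against TUMOR, was 0.66 ± 0.10 on the log2 scale (adjusted p = 5.59e-05), followed by BM against NC at 0.53 ± 0.10 (adjusted p = 0.000364), and TUMOR against NC was -0.13 ± 0.10 (adjusted p = 0.245).

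Ptgs1 (Entrez 19224) encodes cyclooxygenase-1, usually regarded as the form that cells keep at a steady level. It measured 45.10, 47.59 and 79.59 FPKM in NC and 39.55, 39.83 and 39.37 FPKM in HOMING. The BM libraries had 76.17, 74.11 and 72.17 FPKM, and the TUMOR libraries had 57.53, 50.18 and 51.50 FPKM. HOMING was lowest and its libraries nearly equal, BM lay above HOMING and TUMOR, and NC lay above HOMING and overlapped both BM and TUMOR in range, with its replicate 3 apart from its other libraries. The level in BM was 1.85-fold that in HOMING (0.89 ± 0.17, adjusted p = 0.000641), under the 2-fold minimum. Without NC replicate 3, which is in neither group, that change stayed at 0.89 and its adjusted p was 5.19e-08. Likewise TUMOR against HOMING stayed at 0.39 while its adjusted p went from 0.0654 to 5.63e-05. HOMING differed from NC by -0.63 ± 0.17 (adjusted p = 0.00486), which became -0.31 (adjusted p = 0.000601) without NC replicate 3. BM against NC was 0.26 ± 0.17 (adjusted p = 0.187) with that library and 0.58 (adjusted p = 4.69e-06) without it, and TUMOR against NC turned from -0.24 ± 0.17 (adjusted p = 0.217) to 0.09 (adjusted p = 0.21). Levels were summed over a RefSeq transcript of 2881 bases, with 86.4 to 92.2% of the gene's counts, and a transcript model of the authors of 10104 bases without a RefSeq accession.

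Ptgs2 (Entrez 19225) encodes cyclooxygenase-2, the form that inflammatory and growth signals induce. The NC libraries had 43.95, 49.85 and 90.46 FPKM, and the HOMING libraries had 85.89, 86.39 and 98.41 FPKM. The BM libraries had 203.87, 197.44 and 199.18 FPKM, and the TUMOR libraries had 32.71, 44.65 and 44.09 FPKM. Every BM library was thus more than 2-fold above every other library, every HOMING library was above every TUMOR library, and NC overlapped both HOMING and TUMOR through its replicate 3 on one side and its replicate 1 on the other. Among the 12314 tested genes ordered by mean FPKM, Ptgs2 stood at place 366 in BM, 897 in HOMING, 1420 in NC and 2185 in TUMOR.

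Ptgs2 rose from 90.2 ± 7.09 FPKM in HOMING to 200.2 ± 3.33 in BM (1.18 ± 0.22, adjusted p = 0.00053). BM also exceeded NC, at 61.4 ± 25.3 FPKM, by 1.62 ± 0.22 (adjusted p = 3.67e-05) and TUMOR, at 40.5 ± 6.74 FPKM, by 2.35 ± 0.23 (adjusted p = 1.54e-06), a 5.09-fold difference. In TUMOR the level fell by 1.17 ± 0.22 on the log2 scale relative to HOMING (adjusted p = 0.000618). The 2 tumour-bearing groups, BM and TUMOR, therefore held the highest and the lowest mean level of this gene. HOMING against NC was not called at 0.44 ± 0.22 (adjusted p = 0.0889). Without NC replicate 3 that value was 0.85 (adjusted p = 2.92e-05), still under 2-fold, TUMOR against NC moved from -0.73 ± 0.22 (adjusted p = 0.00851) to -0.32 (adjusted p = 0.0189), and BM against NC was 2.03 (adjusted p = 6.36e-08). BM against HOMING, which does not include that library, stayed at 1.18 and its adjusted p became 8.57e-07. The SE of ± 0.22 is thus not the spread of BM and HOMING alone.

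HOMING, the comparison group for BM, is also the group with the highest blood cell markers. In BM against HOMING, 11 of 11 tested neutrophil markers and 8 of 9 tested macrophage and pan-leukocyte markers were called lower in BM. So were 5 of 5 tested erythroid markers and 4 of 5 tested megakaryocyte and platelet markers. Of the 10 tested stromal markers 3 were called higher in BM and 0 were called lower. The 12-gene stromal sum was 474 to 517 FPKM in HOMING against 567 to 597 in BM. The part of these shifts in the Ptgs1 and Ptgs2 differences between BM and HOMING was not tested. Within HOMING, replicate 3 had the highest neutrophil, leukocyte and erythroid sums and also the highest Ptgs2, Ptges and Pla2g4a levels, while its Ptgs1 level was the lowest of the group by a small margin. In BM against TUMOR, 9 of 11 tested neutrophil markers and 8 of 9 tested macrophage and pan-leukocyte markers were called higher in BM. So were 1 of 5 tested erythroid markers and 1 of 5 tested megakaryocyte and platelet markers. Of the tested epithelial markers, 2 of 2 were called lower in BM. The part of all these markers in the Ptgs2 difference between BM and TUMOR was not tested.

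**Figure D2:**
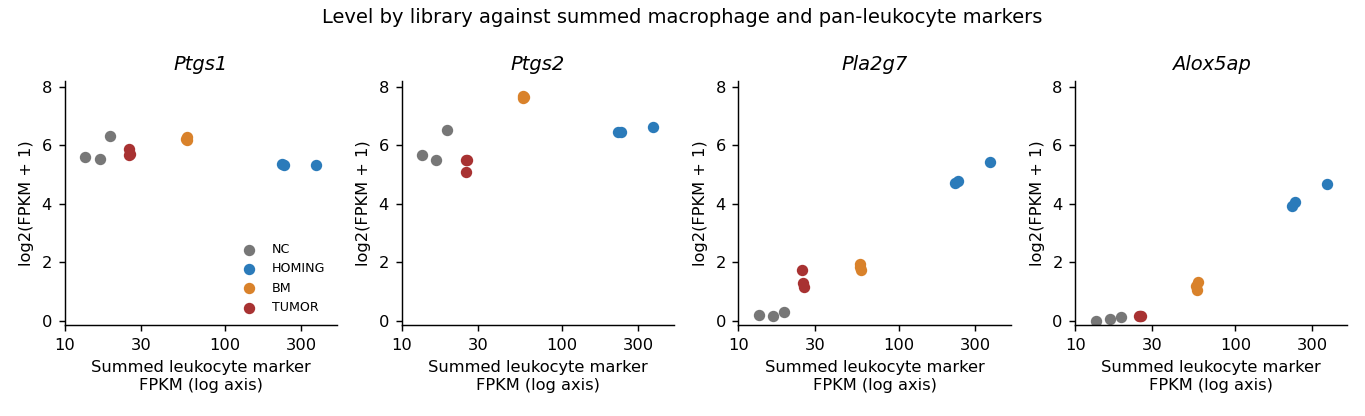
Level of 4 genes as log2(FPKM + 1) (vertical axis) against the summed FPKM of the 11 macrophage and pan-leukocyte markers (horizontal log axis); each point is 1 of the 12 libraries, coloured by group. Pla2g7 and Alox5ap are highest in the HOMING libraries, which hold 226 to 372 FPKM of these markers, whereas Ptgs2 is highest in BM at 57.1 to 58.0 FPKM and Ptgs1 is lowest in HOMING.

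Ptges (Entrez 64292) encodes microsomal prostaglandin E synthase-1, the inducible terminal synthase that makes prostaglandin E2 from prostaglandin H2 and is often induced together with cyclooxygenase-2. It was low in culture, with 4.69, 4.19 and 5.66 FPKM in NC. The HOMING libraries had 36.84, 34.88 and 46.08 FPKM, the BM libraries 47.06, 47.58 and 46.37 FPKM and the TUMOR libraries 36.22, 25.54 and 26.51 FPKM. All 9 libraries of injected cells lay above all 3 cultured ones, whether the cells came from marrow or from the tumour site. Its place among the tested genes moved from 8245 in NC to 1864 in BM.

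The rise over NC was 2.82 ± 0.15 in HOMING (7.04-fold, adjusted p = 5.28e-09), 3.10 ± 0.15 in BM (8.56-fold, adjusted p = 1.13e-08) and 2.39 ± 0.15 in TUMOR (5.25-fold, adjusted p = 2.07e-08). These 3 comparisons share the NC libraries. In HOMING against NC, 11 of 11 tested neutrophil markers and 9 of 9 tested macrophage and pan-leukocyte markers were called higher. So were 5 of 5 tested erythroid markers and 4 of 5 tested megakaryocyte and platelet markers. In BM against NC, 9 of 11, 8 of 9, 2 of 5 and 3 of 5 were called higher, in the same order. In TUMOR against NC, 0 of 11 tested neutrophil markers were called higher and 1 was called lower. The markers called higher there included 2 of 9 macrophage and pan-leukocyte markers (Cd68 and Csf1r) and 2 of 2 tested epithelial markers. Erythroid markers were called higher for 2 of 5, and megakaryocyte and platelet markers for 1 of 5. The part of these markers in the rise of Ptges was not tested. Among the injected groups the differences were small. BM and HOMING, at 47.0 ± 0.607 and 39.3 ± 5.98 FPKM, differed by 0.28 ± 0.14 (adjusted p = 0.0952), and BM exceeded TUMOR, at 29.4 ± 5.91 FPKM, by 0.71 ± 0.14 (adjusted p = 0.000565), under 2-fold. TUMOR and HOMING overlapped because of TUMOR replicate 1 (-0.42 ± 0.14, adjusted p = 0.0194). A RefSeq transcript of 3647 bases held 77.9 to 87.6% of the counts of Ptges in NC and 95.1 to 97.5% elsewhere, and a transcript model of the authors of 6848 bases without a RefSeq accession held the rest.

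Ptgis (Entrez 19223) encodes prostacyclin synthase, a cytochrome P450 enzyme that competes for the same prostaglandin H2. Its levels were 99.64, 100.17 and 119.16 FPKM in NC and 94.06, 88.70 and 93.71 FPKM in HOMING. They were 90.56, 92.14 and 90.04 FPKM in BM and 44.29, 62.27 and 63.38 FPKM in TUMOR. The 3 TUMOR libraries lay below the other 9, HOMING and BM overlapped, and NC was slightly above both. In TUMOR the level fell from 106 ± 11.1 to 56.6 ± 10.7 FPKM relative to NC (-1.03 ± 0.11, 2.05-fold, adjusted p = 3.07e-06), close to the 2-fold minimum. Without NC replicate 3 the change was -0.93 and without TUMOR replicate 1 it was -0.89 (adjusted p = 7.5e-06 and 1.28e-06), so the call was lost each time while the direction stayed. TUMOR was also below HOMING (-0.72 ± 0.11, adjusted p = 0.000161) and below BM (0.73 ± 0.11 for BM against TUMOR, adjusted p = 9.11e-05), both under 2-fold. BM and HOMING differed by 0.01 ± 0.11 (adjusted p = 0.944). HOMING and BM differed from NC by -0.32 ± 0.11 and -0.31 ± 0.11 (adjusted p = 0.0217 and 0.027), values that became -0.21 and -0.20 (adjusted p = 0.0946 and 0.112) without NC replicate 3.

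Hpgd (Entrez 15446) encodes 15-hydroxyprostaglandin dehydrogenase, the enzyme that starts the inactivation of prostaglandin E2. It was at or near 0 in all 12 libraries, with 1 read in each NC library, 2, 2 and 3 in HOMING, 3, 0 and 0 in BM, and 0 in all 3 TUMOR libraries. Scaled by library, HOMING held 2.42 times the NC count, with an exact 95% interval of 0.552 to 14.5 that covers counting error only. The BM count was 0.422 times the HOMING count (0.0704 to 1.85) and 1.02 times the NC count (0.137 to 7.62). For TUMOR, with 0 reads, the interval of the ratio to HOMING reached up to 0.704 and that of the ratio to NC up to 2.54. Only the interval of TUMOR to HOMING lay wholly below 1, on 0 against 7 reads, and the intervals were not adjusted for their number. HOMING is also the group with the highest blood cell markers, whose part was not tested. No other difference was detectable at this depth.

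**Figure D3:**
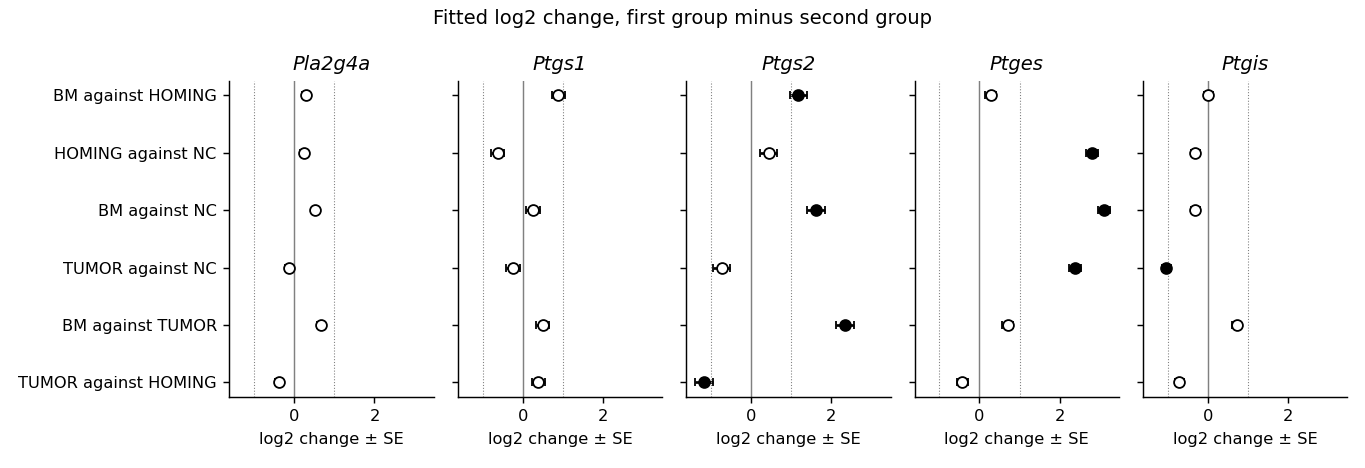
Fitted log2 change ± SE (horizontal axis, first group minus second) of the 5 tested members in each of the 6 comparisons (vertical axis); filled points are called and dotted lines mark 2-fold. Ptgs2 is called in 4 comparisons (3 of BM, and TUMOR against HOMING), Ptges in the 3 comparisons against NC, Ptgis in TUMOR against NC, and Pla2g4a and Ptgs1 in none.

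Because FPKM is scaled to transcript length, levels of different members can be set side by side within a library. The ratio of Ptgs2 to Ptgs1 FPKM was 0.975, 1.05 and 1.14 in the NC libraries, although both genes differed between them. It was 2.17, 2.17 and 2.5 in HOMING and 2.68, 2.66 and 2.76 in BM. In TUMOR it was 0.569, 0.890 and 0.856. Every HOMING and BM library thus had more than 2 times as much Ptgs2 as Ptgs1, and every TUMOR library had less Ptgs2 than Ptgs1. The libraries of the 4 groups did not overlap in this ratio. The ratio of Ptges to Ptgis was 0.0418 to 0.0475 in NC, 0.392 to 0.492 in HOMING, 0.515 to 0.520 in BM, and 0.818, 0.410 and 0.418 in TUMOR. The TUMOR value depended on replicate 1, in which Ptges was highest and Ptgis lowest of the group. With 3 libraries against 3 the smallest p that an exact two-sided permutation test can give is 0.1, so these ratios were not tested.

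**Figure D4:**
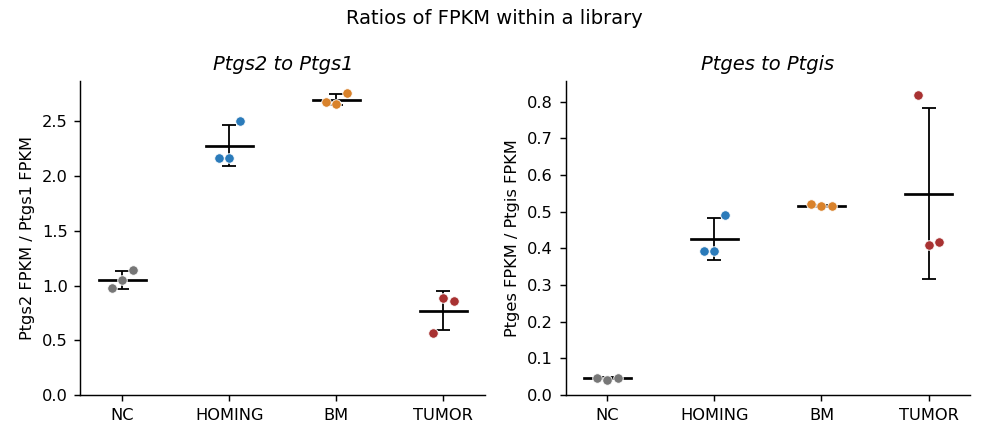
Ratio of FPKM within each library (vertical axes, from 0) for Ptgs2 to Ptgs1 and Ptges to Ptgis in the 4 groups; points are libraries, thick lines are means and bars are SD. Ptgs2 to Ptgs1 was 0.569 to 0.890 in TUMOR and 2.66 to 2.76 in BM, and Ptges to Ptgis was under 0.05 in NC and at least 0.392 in the other groups.

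The tested members had a median log2 change of 0.28 in BM against HOMING, 0.25 in HOMING against NC, 0.53 in BM against NC and 0.71 in BM against TUMOR. It was -0.24 in TUMOR against NC and -0.42 in TUMOR against HOMING. Over all tested genes the median lay between -0.01 and 0.02 in the 6 comparisons. With 5 tested members each median is the value of 1 gene and does not describe a shift of the list. In TUMOR against NC, for instance, Ptges was at 2.39 and Ptgis at -1.035. A wider list of 54 genes, sorted by role and not overlapping the 6 members, was then read in the same fit, and 32 of them were tested. In BM against HOMING 3 of the 32 rose and 6 fell, where 3.71% and 6.68% of all tested genes did. In HOMING against NC 6 rose and 1 fell (9.64% and 4.69% of all genes), and in BM against NC 8 rose and 1 fell (7.93% and 3.57%). In TUMOR against NC 5 rose and 2 fell (9.75% and 6.65%), and in TUMOR against HOMING 1 rose and 6 fell (4.42% and 6.37%). In BM against TUMOR 5 were called higher and 2 called lower in BM (7.28% and 6.95%). Hpgds, Alox5, Ptgir and Ptger4 passed the expression filter through HOMING alone and Ptgfr only with the BM libraries, so these counts describe the list and support nothing about it.

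Among 9 tested phospholipase and release genes, the secreted enzymes Pla2g5 and Pla2g2e and the platelet-activating factor hydrolase Pla2g7 were called most often. Pla2g5, a low molecular weight secreted phospholipase A2, measured 4.27, 4.87 and 4.61 FPKM in BM and 13.67, 6.81 and 8.10 FPKM in TUMOR, against 0.12 to 0.31 FPKM in NC and HOMING. It rose in BM against HOMING by 4.10 ± 0.28 (adjusted p = 1.15e-07) and in TUMOR against HOMING by 5.11 ± 0.28 (adjusted p = 1.47e-08), so that both groups from tumour-bearing mice lay above both others. BM was called lower than TUMOR at -1.01 ± 0.21 (adjusted p = 0.000879), but that value was -0.65 without TUMOR replicate 1 and -0.97 without BM replicate 1, and the call was lost in both cases. Pla2g2e, another secreted phospholipase A2, had 11.14, 11.93 and 8.31 FPKM in NC and 0.92 to 1.49 FPKM in the other 9 libraries. It fell in HOMING (-3.46 ± 0.17, adjusted p = 2.87e-09), BM (-3.26 ± 0.17, adjusted p = 1.74e-08) and TUMOR (-3.07 ± 0.17, adjusted p = 6.5e-09) against NC. Pla2g7 had 26.48, 25.33 and 42.01 FPKM in HOMING, 2.31 to 2.86 in BM, 1.21 to 2.35 in TUMOR and 0.11 to 0.23 in NC. It fell in BM against HOMING by 3.56 ± 0.24 on the log2 scale (adjusted p = 8.89e-08), as did 8 of 9 tested leukocyte markers, whose part was not tested. It was also called higher in BM (3.92 ± 0.39) and in TUMOR (3.24) than in NC.

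Arachidonate is also put back into phospholipids. None of the 4 tested reacylation genes was called in any of the 6 comparisons. The most abundant, Acsl4, which encodes an acyl-CoA synthetase that prefers arachidonate, had group means of 25.6 ± 0.306 FPKM in NC, 30.04 ± 0.476 in HOMING, 32.6 ± 1.39 in BM and 17.4 ± 0.886 in TUMOR. BM exceeded TUMOR 1.92-fold (0.94 ± 0.05, adjusted p = 3.04e-09), just under the minimum.

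Of 6 other tested terminal synthases, Akr1c18 and Hpgds were called. Akr1c18 encodes an aldo-keto reductase that can form prostaglandin F2 alpha and also inactivates progesterone. Its level was 6.37, 5.28 and 6.63 FPKM in BM, 3.47, 1.85 and 2.68 in NC, 1.77, 2.34 and 2.19 in HOMING and 0.93, 1.30 and 1.35 in TUMOR. BM lay above all other libraries, and Akr1c18 rose in BM by 1.56 ± 0.21 over HOMING (adjusted p = 4.69e-05) and by 2.38 ± 0.23 over TUMOR (adjusted p = 1.3e-06). The rise over NC, 1.11 ± 0.21 (adjusted p = 0.000463), became 0.90 and lost its call without NC replicate 2. Hpgds, the hematopoietic prostaglandin D synthase, reached 1 FPKM in HOMING alone, with 181, 197 and 299 reads there, 32 reads over the BM group, 31 over TUMOR and 7 over NC. It fell in BM by 4.38 ± 0.26 on the log2 scale relative to HOMING (adjusted p = 3.64e-08). Hpgds passed the expression filter only through HOMING, so a lower level in the other groups was bound to appear.

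Among the 4 tested export, uptake and breakdown genes only Abcc4 was called, and only in BM against TUMOR. Abcc4 encodes a transporter that exports prostaglandin E2. It measured 15.69, 16.75 and 18.80 FPKM in NC, 20.96, 20.59 and 23.31 in HOMING, 30.49, 28.94 and 26.88 in BM and 12.74, 13.30 and 13.70 in TUMOR. The groups did not overlap and had the order BM, HOMING, NC, TUMOR, and BM exceeded TUMOR by 1.16 ± 0.08 (adjusted p = 7.43e-08).

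Of 6 tested receptor genes, Ptgir, Ptgfr and Ptger4 were called in BM against HOMING, all at levels of no more than 2.18 FPKM. Ptgfr, the receptor for prostaglandin F2 alpha, had 1.25, 1.25 and 1.12 FPKM in BM and 0.52, 0.59 and 0.62 FPKM in HOMING, a rise of 1.09 ± 0.17 (adjusted p = 0.000182). Ptger4, which encodes the EP4 receptor for prostaglandin E2, had 0.53, 0.52 and 0.58 FPKM in BM and 1.63, 1.59 and 1.59 FPKM in HOMING, and fell by 1.54 ± 0.17 on the log2 scale (adjusted p = 6.12e-06). Ptgir, the prostacyclin receptor, had 0.52, 0.71 and 0.61 FPKM in BM and 1.16, 1.55 and 2.18 FPKM in HOMING, and fell by 1.37 ± 0.23 (adjusted p = 0.000216). Ptgir and Ptger4 were thus highest in the group with the most blood cell markers, whose part was not tested, and they passed the expression filter through that group alone. Ptgfr was highest in BM and passed the filter only with the BM libraries, the other library at 1 FPKM or more being TUMOR replicate 1. The filter therefore favoured, for all 3 genes, the direction seen in BM against HOMING, so that direction supports nothing further. In limma on log2(FPKM + 1) the changes were 0.48 for Ptgfr, -0.75 for Ptger4 and -0.69 for Ptgir, and none was called. With log2(FPKM + 0.1) only Ptgfr lost its call, at 0.951.

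The leukotriene branch uses the same arachidonate. Alox5ap, the activating protein of 5-lipoxygenase, had 15.59, 14.37 and 24.48 FPKM in HOMING, 1.07, 1.29 and 1.54 in BM, 0.12 in each TUMOR library and 0 to 0.09 in NC. Alox5, the 5-lipoxygenase itself, passed the filter through HOMING alone and had 1125 reads over the HOMING group, 44 over BM, 6 over NC and 2 over TUMOR. Both fell in BM against HOMING, by 3.77 ± 0.25 and 4.66 ± 0.32 on the log2 scale (adjusted p = 8.2e-08 and 1.24e-07). Both are strongly expressed by leukocytes, and their order over the groups HOMING, BM and the rest was that of the neutrophil markers, whose part was not tested.

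**Figure D5:**
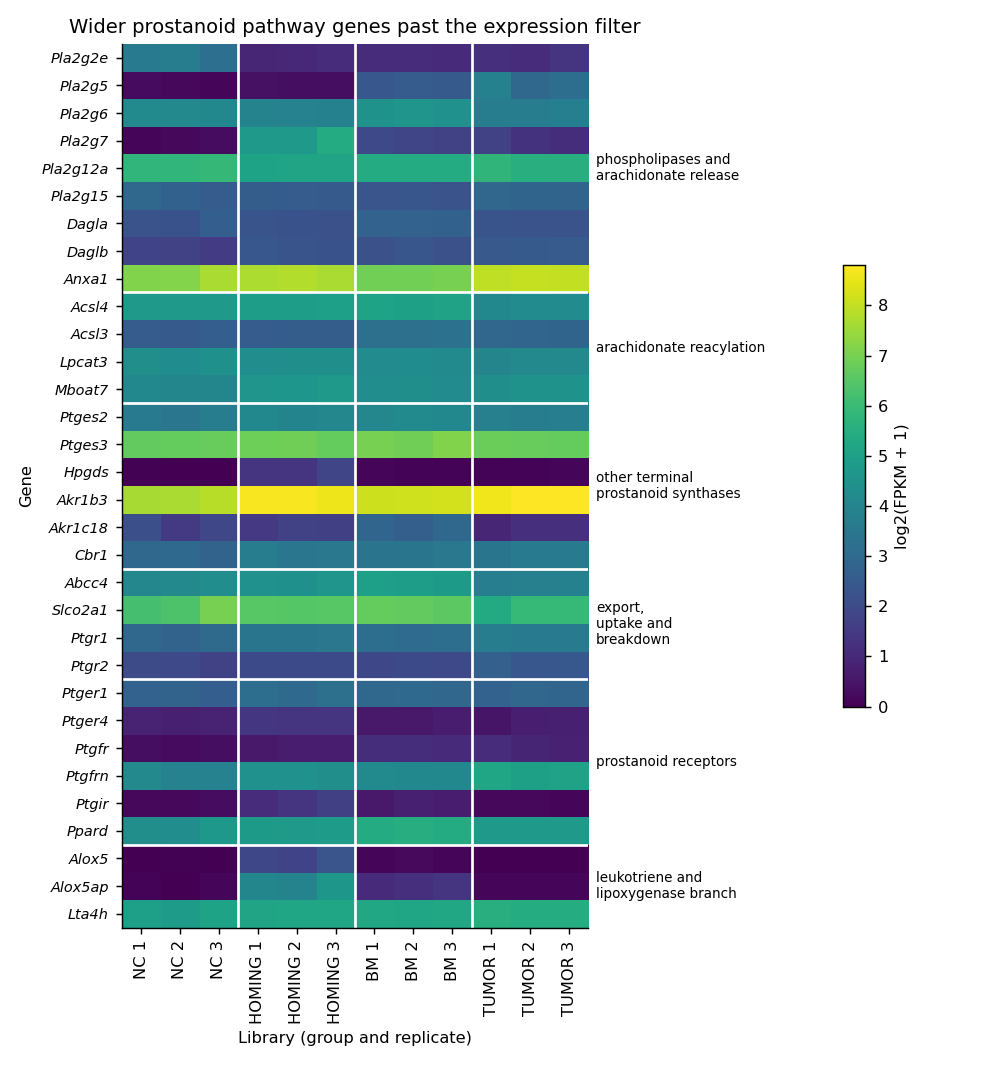
Level of the 32 tested genes of the wider prostanoid list, as log2(FPKM + 1) (colour scale), in each of the 12 libraries (columns, by group and replicate), with genes (vertical axis) ordered by role. Pla2g7, Hpgds, Ptgir, Alox5 and Alox5ap are highest in HOMING, Pla2g5 is highest in TUMOR and BM, and Pla2g2e is highest in NC.

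The tested genes most like each member over the 12 libraries were found by the root mean square difference between log2(FPKM + 1) values centred on each gene's own mean, among 9077 candidates with at least 5 FPKM in their highest group. For Ptgs2 they were Lce1g (0.217), Syt7 (0.224) and Cyp1b1 (0.229), with a median over candidates of 0.921. Cyp1b1, a cytochrome P450 enzyme, had group means of 18.7 FPKM in NC, 24.3 in HOMING, 55.0 in BM and 12.6 in TUMOR. For Ptges they included Aldh3a1 (0.321) and Klf6 (0.452), with a median of 1.21, and Aldh3a1, an aldehyde dehydrogenase, had group means of 12.5, 72.4, 87.2 and 45.0 FPKM in the same order. For Ptgs1 they were Twist2 (0.125), Nrp2 (0.13) and Rchy1 (0.153), for Ptgis Aen (0.095), Slc25a37 (0.096) and Pak3 (0.102), and for Pla2g4a Elac2 (0.0657), Sestd1 (0.0707) and Spred3 (0.0772), with medians of 0.437, 0.444 and 0.352. Among the members themselves the same measure was smallest between Ptgs1 and Pla2g4a (0.356) and largest between Ptges and Ptgis (1.40), and it was 0.767 between the cyclooxygenase genes. The smallest value was under the candidate median of Ptgs1 (0.437) but not under that of Pla2g4a (0.352). The value between the cyclooxygenase genes was under the median of Ptgs2 (0.921) but above that of Ptgs1.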

How the data were processed

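Libraries were made with an Illumina TruSeq RNA kit from 1 µg of Trizol-extracted total RNA of sorted, frozen cells, per the labels' protocols. Reads were mapped with Bowtie 0.12.2 and the build was mm8, per the submitters' processing notes; the counting program was not given in the sources used here. For each library the authors deposited expected counts, which are estimated and unscaled reads of a transcript, and FPKM, scaled to transcript length and mapped fragments and rounded to 2 decimals. Transcripts not listed were set to 0, and both columns were summed per gene. Of 19679 Entrez numbers, 19629 matched a symbol, and the 1322 genes without one took 2.08 to 2.65% of counts. Depth of 43232145 to 46166519 counts per library limits precision for rare genes such as Hpgd.

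Genes needed 1 FPKM or more in 3 libraries or more to be tested, which 12314 did. Their rounded expected counts were fitted in one 4-group model with edgeR 4.0.16 under R 4.3.3, with TMM factors of 0.929 to 1.039, followed by two-sided quasi-likelihood F-tests for 6 comparisons and Benjamini-Hochberg adjustment over all tested genes. Groups came from sample titles. Alternatives were DESeq2 1.42.0, limma 3.58.1 on log2(FPKM + 1) and log2(FPKM + 0.1), other scalings, no filter, the compared groups alone, the top transcript, no minimum fold change, a replicate block and leaving out each library. For the wider pathway genes these were added after the data were seen. All 6 members are named, plus up to 3 called genes of each role with at least 1 FPKM in their highest group, by largest change, or the most abundant gene where none was called; genes most like a member are the 3 with the smallest difference, without predicted genes, and 1 of these is not reported here. The members and lists were chosen with earlier results of these data known. Promoter windows came from RefSeq on GRCm38.p6. Python 3.11.15, pandas 2.3.3 and matplotlib 3.10.9 were used for tables and plots.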

Additional observations from a re-analysis of the deposited data

How the results depend on the processing

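Without a filter the genes called were 2581 (BM against HOMING), 3302 (HOMING against NC), 2537 (BM against NC), 3420 (TUMOR against NC), 3162 (BM against TUMOR) and 2702 (TUMOR against HOMING), against 1280, 1765, 1416, 2019, 1752 and 1329. Without a minimum fold they were 7158, 8617, 8198, 9068, 8576 and 6776, and the members called were 3, 4, 4, 3, 5 and 4 of 5. With limma on log2(FPKM + 1) 626 genes were called in BM against NC, 1301 in TUMOR against NC and 930 in BM against TUMOR. Leaving out each library gave 1276 to 1298, 1737 to 1833, 1373 to 1504, 1853 to 2153, 1611 to 1819 and 1209 to 1426 genes, and member counts stayed at 1, 1, 2, 1 to 2, 1 and 1. The member count in TUMOR against NC was 1 with limma at either pseudocount and with library size alone, where Ptgis gave -0.91, -0.92 and -0.91 and lost its call; the cause was not tested. Without a filter, 2 members were called in TUMOR against HOMING, since Hpgd was then tested (adjusted p = 0.0405). Scaling by library size alone moved the share of called genes that were higher in TUMOR than in NC from 59.4% to 69.7%, and the median of all genes to 0.12 in HOMING and 0.13 in TUMOR against NC.

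Signs turned only for differences that were not called. Ptgis in BM against HOMING, 0.01, was 0 with DESeq2 and with median-ratio factors, -0.019 with limma at either pseudocount, -0.021 with library size alone, -0.017 without HOMING replicate 2 and -0.003 without BM replicate 2 (range over left-out libraries -0.017 to 0.029). Ptgs1 in TUMOR against NC was 0.086 without NC replicate 3 (range -0.396 to 0.086). Pla2g4a in TUMOR against NC was 0.004 and 0.005 with limma and 0.021 without NC replicate 3 (range -0.21 to 0.021). Of the member changes, 614 alternative values kept direction and side of the threshold, 5 lost a call and 11 turned sign. Of the pathway gene changes 896 kept both and 26 lost a call, mostly with limma, and the cause was not tested.

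Whether replicate numbers pair the samples is not stated, and the weak correlations that follow cannot decide it. Deviations of same-numbered libraries from their group means correlated at -0.12 to 0.224 over 18 pairs, and those of other numbers at -0.154 to 0.199 over 36. With a replicate block 1285, 1770, 1421, 2018, 1750 and 1325 genes were called, the member counts did not move, and Pla2g5 in BM against TUMOR (-0.95) lost its call.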

Other observations

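Some genes of the wider list were called outside the naming rule and are given here after their values were seen. Anxa1, which encodes annexin A1, an inhibitor of phospholipase A2 activity, was lower in BM than in TUMOR, and Ptgfrn, a partner protein of the prostaglandin F receptor, was higher in TUMOR than in NC. Slco2a1, the prostaglandin uptake transporter, was called in no comparison. Its levels were 73.37, 80.91 and 126.44 FPKM in NC, 91.73, 88.14 and 91.86 FPKM in HOMING, 104.85, 103.67 and 95.26 FPKM in BM and 40.34, 59.35 and 58.13 FPKM in TUMOR. As with Ptgs1 and Ptgs2, NC replicate 3 was the highest of its group. TUMOR lay below every other library, 1.95-fold below NC (-0.96 ± 0.18, adjusted p = 0.000413 in edgeR's quasi-likelihood test) and 1.98-fold below BM (0.99 ± 0.18 for BM against TUMOR, adjusted p = 0.000396).

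Within a library, the ratio of Ptgs2 to Slco2a1 FPKM was 0.599, 0.616 and 0.715 in NC, 0.936, 0.980 and 1.07 in HOMING, 1.94, 1.90 and 2.09 in BM and 0.811, 0.752 and 0.758 in TUMOR. The ratio of Ptgs2 to Ptgis FPKM was 2.14 to 2.25 in BM, 0.913 to 1.05 in HOMING, 0.696 to 0.739 in TUMOR and 0.441 to 0.759 in NC. In both ratios every BM library lay above every other library, and the 3 NC libraries differed less in the first ratio than in either gene alone.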
